A study of Rattus norvegicus with 35 samples.

Results

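Cardiac fibroblasts, the matrix-producing cells of the heart, were examined 24 h after short-wave ultraviolet light (UVC, called UV here). The comparison used 6 of the 35 arrays of the series: 3 arrays of cultures of fibroblasts after UV at 10 J/m2 and 3 of cultures handled in the same way without UV (sham-UV), chosen by their labels and numbered 1 to 3 in each group. All 6 came from the ventricles of neonatal rats, whose strain was not given in the sources used here. Fibroblasts were separated from cardiomyocytes (CM) by pre-plating, that is by their faster attachment to plastic, and were subcultured and grown to confluence. Cultures were rinsed with buffer before the exposure at room temperature. The other arrays used for comparison were 3 of cultures of fibroblasts after ionizing radiation (IR, X-rays at 8.5 Gy) and 3 after sham-IR, and 3 of CM-enriched fractions after UV and 2 after sham-UV, all taken at 24 h. RNA was hybridised to Affymetrix rat genome arrays, on which each of 8740 probe-sets gave 1 intensity. The numbers were read as the independent experiments that the methods describe for each stressor. Whether these used separate litters is not given in the sources used here, so the p-values below refer to these experiments only. They set the mean change against the spread of the change from control to treated between numbered experiments. For each probe-set, 1 such spread was shared by all 35 arrays, including other stressors and CM-enriched samples.

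The label was checked against marker genes. The summed normalized intensity of 12 fibroblast markers was 42054 to 45550.2 in fibroblasts after sham-UV, against 17757 to 23336 in CM-enriched fractions after sham-UV. The sum of 14 cardiomyocyte markers ran the other way, 19977 to 23481 against 61133 to 66519. Heart muscle RNA was thus measurable in every array of the fibroblast cultures. By their myosin content, the study found that a large majority of cells in these cultures were non-myocytes. The sums of intensities are therefore not shares of cells. Of the fibroblast markers only S100a4 was higher in CM-enriched fractions, with means of 1525 in fibroblasts and 5502 in the fractions after sham-UV. The sum of 7 smooth muscle markers was also higher in those fractions, 9727 to 10681 in fibroblasts against 12450 to 16731. These markers were split. After sham-UV, Acta2 and Tagln had higher means in fibroblasts, 4191 and 2770 against 2774 and 1318. Myl9, Cnn1, Actg2, Myh11 and Des had higher means in the fractions, with Des at 183 in fibroblasts and 4490 in the fractions. Endothelial markers summed to 183 to 209 and leukocyte markers to 269 to 327, with the leukocyte genes Cd74, Cd8a and Itgam at the floor of 6.88 in all sham-UV arrays. In cultures that mix cell types, fewer cells of a type and less RNA per cell cannot be told apart.

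UVC joins neighbouring pyrimidines in DNA into dimers that stop RNA polymerase II and replication forks. Cells remove them by nucleotide excision repair, while p53 and its inhibitor Mdm2, the CDK inhibitor p21 (Cdkn1a) and the AP-1 family of transcription factors are well-known components of the response. Fibroblasts of the heart also make collagen and other matrix, and can take on the contractile genes of smooth muscle when they become myofibroblasts.

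The first question was how much of the measured transcriptome differed after UV. At an adjusted p under 0.05 in limma, 2002 of 8740 probe-sets (22.9%) changed, 1024 upwards (11.7%) and 978 downwards (11.2%). The median absolute change of those called was a log2 value of 0.90. All arrays were brought to 1 distribution of values, so each change is relative to the rest. A general loss of RNA would not show. Larger changes were more often falls, since 533 called probe-sets fell and 336 rose by more than 2-fold, and 148 fell and 59 rose by more than 4-fold. Counted by gene, where a call needed 50% or more of a gene's probe-sets in 1 direction, 658 of 4736 rose (13.9%) and 617 fell (13%). These shares are the background for every gene list below. Values of the 3 UV arrays did not overlap those of the 3 sham-UV arrays in 2607 probe-sets, 29.8% of all tested. Among called probe-sets the share was 90.1%, so separation of the groups in a called gene below is a description without added support. The same fit called 3 probe-sets higher (0.0343%) and 4 lower (0.0458%) in fibroblasts after IR, and 753 higher (8.62%) and 713 lower (8.16%) in CM-enriched fractions after UV, which is 7 (0.0801%) and 1466 (16.8%) in either direction.

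The gene with the largest rise was Abcb1b, which encodes a P-glycoprotein that pumps drugs and lipids out of the cell. Normalized intensities were 33.0, 25.1 and 21.3 after sham-UV and 446, 504 and 525 after UV in arrays 1, 2 and 3. Each UV array was far above each sham-UV array (log2 change 4.23, SE 0.19, adjusted p = 2.68e-08), a difference of 18.8-fold. The related transporters Abcb1a and Abcb4 were at log2 changes of -0.29 and -0.61 and did not pass the test. Cd80, the costimulatory ligand of T cells, went from 9.66, 8.40 and 10.1 to 156, 105 and 186 (log2 change 3.95, SE 0.39, adjusted p = 1.02e-05). Fst, the secreted activin antagonist follistatin, went from 109, 93.8 and 125 to 659, 679.9 and 893 (log2 change 2.77, SE 0.11, adjusted p = 2.08e-08). Both genes were separated by a wide gap in all 3 pairs. Other leading rises were Ephx1, the microsomal epoxide hydrolase (2.89, SE 0.15), and Cad, which starts pyrimidine synthesis (3.31, SE 0.55). Changes of genes near the floor depend on where it is set: with the floor at 24.5, Cd80 changed by 2.56, Cad by 1.80, Fosl1 by 1.49 and, among the falls, Cyp7b1 by -3.76 and Nfia by -3.04, all still called.

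**Figure D1:**
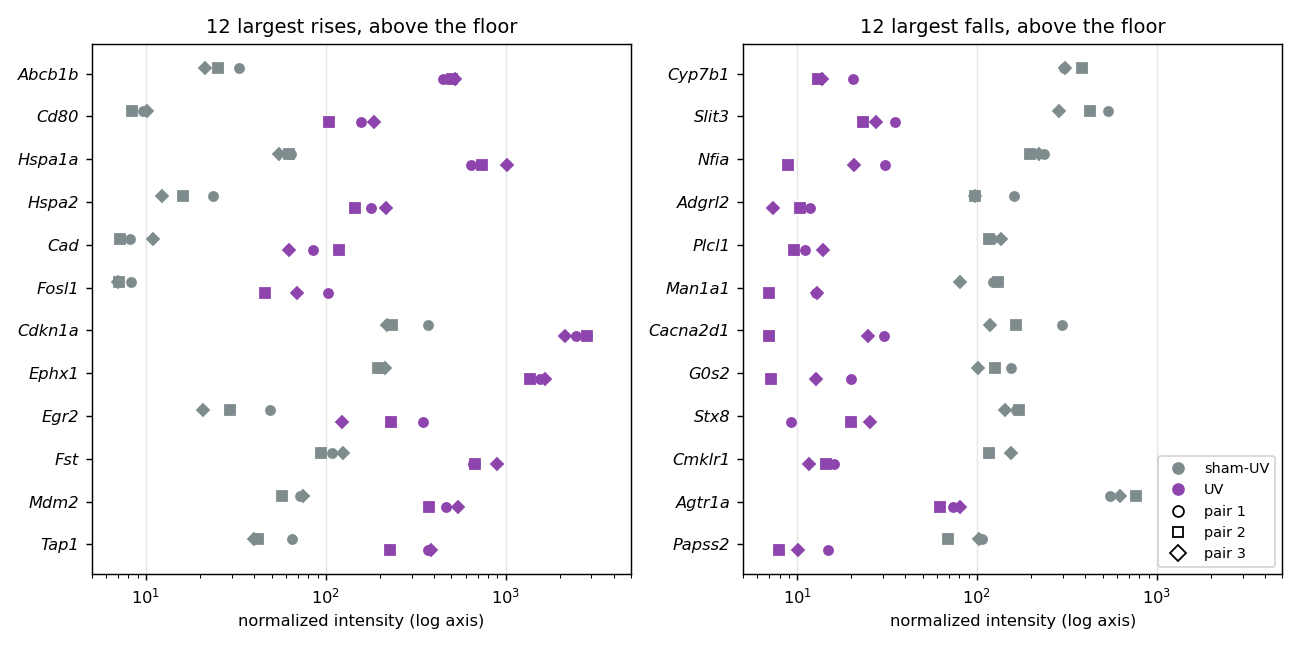
Normalized intensity (log axis) of the 12 genes with the largest rises (left) and falls (right) after UV among genes above the floor on all 6 arrays, 1 point per array, grey for sham-UV and purple for UV, with marker shapes for pairs 1 to 3. In all 24 genes the UV and sham-UV arrays are separated, as in Abcb1b, whose UV arrays lie at 446, 504 and 525. The genes were chosen as called and alike in 3 pairs, and 90.1% of all called probe-sets show such separation.

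Among the falls, Cyp7b1, an oxysterol hydroxylase, was first. Its intensities were 305, 386 and 309 after sham-UV and 20.4, 13.1 and 13.8 after UV (log2 change -4.42, SE 0.26, adjusted p = 2.26e-07), 21.5-fold lower with no overlap. Slit3, a secreted guidance protein of the matrix, went from 533, 423 and 286 to 35.1, 23.4 and 27.3 (log2 change -3.83, SE 0.25, adjusted p = 4.70e-07). Agtr1a, the angiotensin II receptor through which fibroblasts are driven to make matrix, went from 549.7, 763 and 625 to 74.1, 62.0 and 80.8 (log2 change -3.15, SE 0.19, adjusted p = 2.46e-07). Every UV array of these genes lay below every sham-UV array, and the near-identical copy Agtr1b may share the Agtr1a signal. Transcription factor Nfia changed by -3.61 on the log2 scale, the latrophilin Adgrl2 by -3.57, the mannosidase Man1a1 by -3.38 and the calcium channel subunit Cacna2d1 by -3.37. G0s2, an inhibitor of triglyceride lipase, changed by -3.36, and Cmklr1, the chemerin receptor, by -3.20. In 4 further genes all UV arrays of 1 probe-set were at the floor: Cap2 (sham-UV 49.7, 86.9 and 59.5), Prim2 (46.6, 46.9 and 50.8), Ebf1 (64.9, 49.6 and 31.5) and the growth factor Nrg1 (37.7, 45.1 and 41.8). Against that floor these probe-sets were at least 9.24-, 6.99-, 6.79- and 6.02-fold lower. Cap2 and Ebf1 have no other probe-set. The brighter one of Prim2 changed by -1.65 (adjusted p = 0.00446), and of the 7 of Nrg1, 5 were lower and the others were not called, with log2 changes from -2.82 to 0.28. In the opposite direction Lin7c, a scaffold protein of polarized membranes, was at the floor after sham-UV and at 33.9, 22.1 and 50.4 after UV, at least 4.88-fold higher.

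Genes that fell had longer spans than the rest. Gene span, the distance on the genome from the first to the last base of a gene, was taken from RefSeq (GRCr8) for 4718 genes. Its median was 15.0 kb for genes that rose, 20.9 kb for genes not called and 71.6 kb for genes that fell. Of the genes above the median signal, 124 of 190 with a span of 100 to 300 kb fell (65.3%), and 4 rose. Beyond 300 kb, 32 of 49 fell (65.3%) and 0 rose. Below 10 kb, 88 of 680 fell (12.9%) and 164 rose (24.1%), and between 10 and 30 kb 87 of 786 fell (11.1%) and 226 rose (28.8%). The class between, 30 to 100 kb, held 148 falls (22.6%) and 106 rises (16.2%) among 654 genes. Median log2 changes over the genes above the median signal, called or not, were 0.087 below 10 kb, 0.16 at 10 to 30 kb, -0.056 at 30 to 100 kb, -0.97 at 100 to 300 kb and -1.37 beyond 300 kb. For the last class the medians of the pairs were -1.28, -1.54 and -1.34. Over genes of any signal these differences were smaller and the longest class was not the most changed. Below 10 kb 96 of 1396 genes then fell (6.88%, median 0.079), at 100 to 300 kb 175 of 459 (38.1%, median -0.41) and beyond 300 kb 55 of 180 (30.6%, median -0.24).

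**Figure D2:**
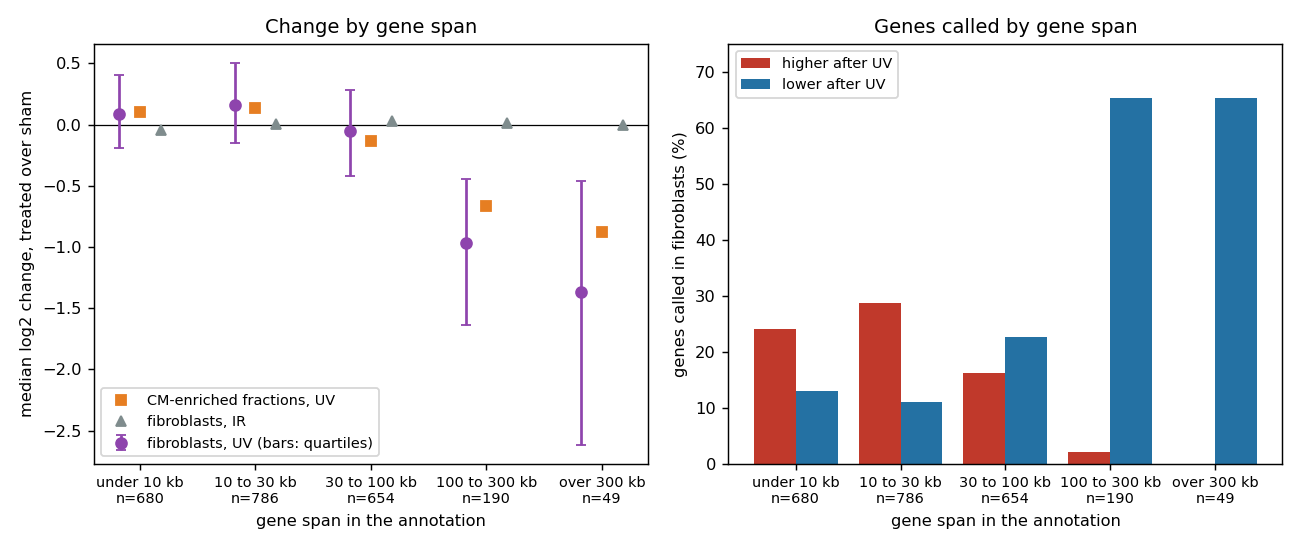
Genes above the median signal in 5 classes of gene span. Left, median log2 change after UV in fibroblasts (points, bars are quartiles over genes), after UV in CM-enriched fractions (squares) and after IR in fibroblasts (triangles). Right, percent of genes called higher or lower after UV in fibroblasts, where the share lower is 12.9% below 10 kb and 65.3% beyond 300 kb.

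The same classes were read in the other comparisons. After IR in fibroblasts their median changes were 0.016 at 100 to 300 kb and -0.0040 beyond 300 kb. In CM-enriched fractions after UV they were -0.67 and -0.88. Across 2359 genes above the median signal, Spearman's rho between span and change was -0.32 for UV in fibroblasts, 0.15 for IR in fibroblasts and -0.35 for UV in CM-enriched fractions. Genes share libraries and are not independent replicates, so these values are descriptions without a test. The 4 well-expressed genes over 100 kb that rose, named after their values were seen, were Ptk2 (focal adhesion kinase, log2 change 1.09), Sgk1 (0.68), Scaf8 (0.42) and Limk2 (0.40). At the short end, 14 of the 96 genes under 10 kb that fell, on all signal levels, belonged to the contractile and cardiomyocyte lists described below, which have 19 members of that span on the array.

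The p53 targets Cdkn1a, Mdm2 and Ccng1 rose. Cdkn1a, the p21 inhibitor of cyclin-dependent kinases, had intensities of 369.6, 234 and 219.8 after sham-UV and 2456, 2849 and 2132 after UV (log2 change 3.20, SE 0.23, adjusted p = 8.29e-07). Mdm2, the ubiquitin ligase that degrades p53, went from 217, 217 and 251 to 1132, 1484 and 1259.9 in its brightest probe-set (log2 change 2.49, SE 0.13, adjusted p = 9.98e-08), a second rose by 2.76, and the other two were not called. Ccng1, cyclin G1, went from 2245, 2331 and 2305 to 4618, 4075 and 5163 (log2 change 1.003, SE 0.087, adjusted p = 4.18e-06). No other target of the 7 on the array passed the test, with Gadd45a, a growth arrest gene, at -0.085 and Zmat3, an RNA-binding protein, at 0.14. The median of the list was 0.14.

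Of 18 genes for G1 cyclins, their kinases, CDK inhibitors and related cell cycle regulators, 4 rose and 5 fell. The rises include Cdkn1a and Ccng1, already given as p53 targets. Ccnd3, a D-type cyclin, fell from 1803, 2002 and 2002 to 805, 633 and 908 (log2 change -1.32, SE 0.12, adjusted p = 6.16e-06) in the brightest of its 4 probe-sets, of which 2 were lower, with all UV arrays below all sham-UV arrays. The pocket protein Rbl2 fell by 1.02 and the inhibitor Cdkn2b rose by 0.69. Of 19 mitotic genes, 1 rose and 0 fell, with a list median of -0.017. That 1 was Cdc20, an activator of the anaphase-promoting complex, at 48.7, 51.5 and 35.6 after sham-UV and 76.3, 83.6 and 77.8 after UV (adjusted p = 0.00293). It was not called with no replicate block (adjusted p = 0.103) or on the 6 arrays alone (adjusted p = 0.106). After IR the median of these mitotic genes was -0.87 and 3 fell, and 7 of 19 were higher after UV than after IR by the test of the difference itself. For Cdc20 the log2 changes were 0.83 after UV and -1.11 after IR, and for Racgap1, a regulator of cytokinesis, -0.30 and -1.51.

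Of 19 apoptosis regulators, 6 rose, 0 fell and 13 were not called, among them the death ligand Faslg at -0.62 and the survival protein Bcl2 at -0.38. The effector caspase Casp6 went from 94.7, 83.7 and 85.9 to 183, 156 and 249.9 (log2 change 1.13, SE 0.17, adjusted p = 3.53e-04). Diablo, which neutralises inhibitors of apoptosis, went from 196, 202 and 206 to 353, 339 and 298 (log2 change 0.71, SE 0.12, adjusted p = 9.98e-04). Birc2, itself an inhibitor of apoptosis, was at the floor in all sham-UV arrays and at 23.5, 26.4 and 25.3 after UV, but this low signal was not called with the floor set at 24.5 (adjusted p = 1). The BH3-only gene Bcl2l11 was also at the floor after sham-UV in 1 probe-set and at 38.4, 32.9 and 54.6 after UV, at least 5.96-fold higher, and all 4 of its probe-sets were called, the least changed at a log2 value of 0.72.

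Enzymes that supply nucleotides rose in 11 of 17 cases and fell in 0, with a median of 0.64 against 0.013 over all genes. Tyms, thymidylate synthase, went from 42.0, 37.8 and 29.4 to 163, 152 and 164 (log2 change 2.15, SE 0.15, adjusted p = 8.29e-07). Hprt1, the purine salvage enzyme, went from 565, 528 and 531 to 1273, 889 and 1047 (log2 change 0.97, SE 0.096, adjusted p = 1.21e-05). Cad, named above, had 8.16, 7.19 and 10.9 after sham-UV and 85.1, 118 and 62.6 after UV. All 3 showed complete separation of the groups. Ppat, the first enzyme of purine synthesis, and Prpsap1, which binds the enzyme that makes the ribose donor, rose by 1.01 and 0.80. The replicative helicase subunit Mcm7 rose too (1.02, SE 0.17), within a list of 33 repair and replication genes of which 10 rose and 4 fell. Its partner Mcm6 was not called as a gene, since 1 of its 3 probe-sets rose (1.23, SE 0.17) and the lowest was at 0.43. All 3 members over 100 kb were among the falls. One of them was Mgmt, which removes alkyl groups from guanine, at 947, 1041 and 871 after sham-UV and 315, 206 and 289 after UV (log2 change -1.84, SE 0.15, adjusted p = 2.22e-06), although a second Mgmt probe-set was at a log2 change of 0.069 and was not called. Xrcc5, the Ku80 end-joining protein, had 67.2, 68.8 and 58.2 after sham-UV and 36.7, 8.09 and 6.88 after UV (log2 change -2.35, SE 0.39, adjusted p = 6.82e-04), with the fall smallest in pair 1.

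Early response genes of the AP-1 and related families differed at 24 h, with 12 of 31 higher and 4 lower. Fosl1, an AP-1 subunit, had intensities of 8.24, 7.05 and 7.04 after sham-UV and 103, 45.7 and 69.3 after UV (log2 change 3.22, SE 0.25, adjusted p = 1.57e-06). Jun, its partner, went from 111, 105 and 116 to 327, 298 and 299 (log2 change 1.47, SE 0.15, adjusted p = 1.83e-05). The zinc finger factor Egr2 went from 49.3, 29.2 and 20.9 to 349, 232 and 123 (log2 change 2.79, SE 0.27, adjusted p = 8.75e-06). All were separated in every pair, while the levels of Egr2 differed between the sham-UV arrays as well. Of the phosphatases that switch off MAP kinases, Dusp6 rose by 2.15, SE 0.19, and Dusp5 by 1.23, SE 0.15. Fos itself was at a log2 change of 0.16 and was not called. Jun and Dusp6 moved little in CM-enriched fractions after UV, with log2 values of 0.19 and 0.27, and their changes in fibroblasts were higher by 1.28 (SE 0.24, adjusted p = 0.00921) and 1.88 (SE 0.29, adjusted p = 0.00306). The list as a whole did not lean to fibroblasts: the difference was called higher there in 5 of 31 genes and lower in 5. In CM-enriched fractions 9 of the 31 rose after UV and 3 fell.

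Genes for MHC class I peptide loading and the immunoproteasome rose in 9 of 13 cases and fell in 0, with a median of 0.88. Interferon-stimulated genes, which cells switch on against viruses, rose in 11 of 22 cases and fell in 0, with a median of 0.53. The letters GAAA, any 2 bases and GAAA again, or the reverse complement with TTTC on both sides, form a core of the sequence that interferon regulatory factors and STAT complexes bind, and were looked for in both strands of the 250 bases before each gene start in the RefSeq promoter table (GRCr8). This motif was picked from several after matches had been seen. It occurred in 13 of the 20 members that rose and have a window, and in 2 of 11 that were not called, against 3.29% of 27457 rat genes and 2.71% of 3870 genes of the array. A match is no evidence of binding. Windows around the match are given below for leading members that rose and for Oas1b, a member not called that also holds it, with the motif in capitals and each sequence 5′ to 3′ on the strand of the gene.
Tap1, chr20:4668645-4668674, minus strand: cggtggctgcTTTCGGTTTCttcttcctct
Tap2, chr20:4652318-4652347, minus strand: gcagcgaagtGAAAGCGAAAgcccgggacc
Psme2, chr15:33052785-33052814, minus strand: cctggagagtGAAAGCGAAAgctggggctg
Gbp2, chr2:234005686-234005715, plus strand: agttttttagTTTCACTTTCattgtcttaa
Irf7, chr1:205800073-205800102, minus strand: acagtttaggTTTCATTTTCccgagacgca
Eif2ak2, chr6:21941128-21941153, plus strand: agtccgccggGAAAACGAAAcagaga
Lgals3bp, chr10:104127879-104127908, minus strand: gtgttttctgGAAATCGAAActagactagg
Oas1b, chr12:41395892-41395921, minus strand: cccttcccggGAAATGGAAActgaaaaccc

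Among the genes with these sequences, Gbp2, an interferon-induced GTPase, gave the widest change, from 9.54, 10.8 and 6.88 to 148, 135 and 133 (log2 change 3.96, SE 0.29, adjusted p = 1.20e-06), or 2.50 with the higher floor. Irf7, the master factor of the interferon response, went from 62.7, 91.6 and 62.9 to 273, 252 and 350.1 (log2 change 2.02, SE 0.23, adjusted p = 3.03e-05). Psme2, the activator of the immunoproteasome, went from 169.7, 132 and 119 to 554, 495 and 644 (log2 change 2.02, SE 0.14, adjusted p = 8.19e-07). None of these UV values overlapped the sham-UV values. Tap1, a subunit of the peptide transporter, rose by 1.15 in its brightest probe-set and by 2.74 in a second, and its partner Tap2 by 0.88. The RNA-sensing kinase Eif2ak2 rose by 1.92 and Lgals3bp, a secreted glycoprotein, by 1.25. Irf1 and Psmb9, a catalytic subunit of the immunoproteasome, rose without the motif in their windows (1.16, SE 0.15 and 1.57, SE 0.17). The class I gene RT1-CE12 rose by 0.89, a value that near-identical class I genes may share. In fibroblasts after IR, the medians of both lists were -0.075 and 0.11 with 0 members called. The summed leukocyte markers ranged from 269 to 327 after sham-UV and from 369 to 412 after UV. Most of this shift lay in Cd14, with means of 108 after sham-UV and 205 after UV. Lyz2 went the other way (54.0 to 39.3, not called), as did Cd3g (16.8 to 13.9). Of the 10 markers Cd14 (0.95) and Csf1r (0.92) rose, and Ptprc, which all leukocytes carry, was at 0.048. Csf1r was not called on the 6 arrays alone, with the higher floor, a pseudocount or other scaling, or without pair 1 or 3 (adjusted p = 0.0552 to 1). The part of these markers in the rises of peptide loading, interferon and inflammatory genes was not tested.

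Inflammatory mediators were mixed, 9 of 41 higher and 5 lower with a median of 0.058. Il6, the cytokine interleukin-6, was in 1 of 2 probe-sets at or next to the floor after sham-UV (6.88, 7.02 and 6.88) and at 48.6, 35.7 and 50.4 after UV (log2 change 2.68, SE 0.24, adjusted p = 4.62e-06), a change of 0.86 with the higher floor. Icam1, the leukocyte adhesion molecule, went from 663, 773 and 579 to 1498, 1448 and 1412 (log2 change 1.12, SE 0.11, adjusted p = 1.37e-05), but was not called with the experiment as a random block (adjusted p = 0.0748). The phospholipase Pla2g4a, which releases arachidonic acid, went the other way, from 289.6, 406 and 408 to 112, 88.6 and 122 (log2 change -1.77, SE 0.15, adjusted p = 2.80e-06). Nfkb1, a subunit of NF-kappaB with a span of 116 kb, fell by 1.07. Both members of this list over 100 kb were lower.

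Heat shock proteins rose in 13 of 27 cases, with 2 lower. Hspa1a, the inducible Hsp70 chaperone, had intensities of 64.4, 62.8 and 55.0 after sham-UV and 643, 737 and 1018 after UV (log2 change 3.69, SE 0.34, adjusted p = 6.99e-06). Its near-identical copy Hspa1b may share this signal. Hspa2, another member of the family, went from 23.6, 16.01 and 12.3 to 179, 145 and 216 (log2 change 3.41, SE 0.30, adjusted p = 5.00e-06). Both were higher in each UV array. Hsph1, their exchange factor, rose by 1.01, the Hsp90 cochaperone Fkbp4 by 0.90 and the chaperonin subunit Cct3 by 0.66. Of the chaperones of the endoplasmic reticulum, Hspa5, Pdia6 and Hsp90b1 were called lower. Hspa5 (BiP) was at 1579, 1455 and 1379 after sham-UV and 1041, 999 and 936 after UV (log2 change -0.57, SE 0.10, adjusted p = 0.00119), and Pdia6 changed by -0.57 (SE 0.068). Hsp90b1 was lower in 2 of 3 probe-sets, and its brightest was not called (-0.39). The folding genes Pdia3, P4hb and Calr, at -0.013, -0.020 and -0.022, and Dnajb9, at 0.53, were not called. In the list of the integrated stress response and ER folding to which they belong, 3 of 22 rose and 4 fell. Atf3, a stress-induced factor, rose by 1.11, and the pseudokinase Trib3 fell by 1.09 in 1 of 2 probe-sets, the other at -0.090. Ddit3 (CHOP) was at 762, 846 and 806 after sham-UV and 737, 614 and 900.1 after UV and was not called (log2 change -0.12, adjusted p = 0.709).

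Of 29 proteasome and ubiquitin genes, 19 rose and 1 fell, with a median of 0.61. Among the ATPase subunits of the regulatory particle, Psmc4 went from 375, 399.5 and 392.4 to 689.9, 812 and 836 (log2 change 0.999, SE 0.050, adjusted p = 5.11e-08), and Psmc1 from 548, 490.0 and 524 to 1204, 1302 and 1265 (log2 change 1.27, SE 0.082, adjusted p = 4.31e-07). Psmc2 and Psmc5 rose by 1.18 and 1.03, and the core subunit Psma1 by 1.07 in 1 of 2 probe-sets, the other at 0.092. The spread within each group was small beside these shifts. Of the 22 members with a span under 30 kb, 17 rose and 0 fell. The median of the list was 0.51 after UV in CM-enriched fractions and -0.088 after IR in fibroblasts.

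Detoxifying and antioxidant genes rose in 18 of 41 cases and fell in 3. Ephx1 had intensities of 205, 196 and 214 after sham-UV and 1549, 1366 and 1646 after UV (log2 change 2.89, SE 0.15, adjusted p = 5.99e-08). Gclc, which limits glutathione synthesis, went from 36.6, 47.4 and 35.5 to 90.6, 121 and 184 (log2 change 1.68, SE 0.24, adjusted p = 2.46e-04), and Hmox1, heme oxygenase 1, from 618, 597 and 435 to 1056, 1087 and 1014 (log2 change 0.95, SE 0.14, adjusted p = 2.56e-04). Me1, the malic enzyme that makes NADPH, fell by 1.44. Genes of cholesterol synthesis and other targets of SREBP, the sterol-sensing transcription factor, rose in 10 of 20 cases and fell in 1, with a median of 0.49. Scd, the stearoyl-CoA desaturase, went from 406, 454 and 591 to 1063, 1204 and 1208 (log2 change 1.28, SE 0.13, adjusted p = 1.09e-05), and fatty acid synthase Fasn from 542, 651 and 772 to 1046, 2711 and 1705 (log2 change 1.38, SE 0.28, adjusted p = 0.00268). Idi1, of the isoprenoid pathway, rose by 1.17 in 1 of 2 probe-sets and Acly, which makes cytosolic acetyl-CoA, by 0.73. With the experiment as a random block Scd and Idi1 were not called (adjusted p = 0.223 and 0.151).

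Contractile genes of smooth muscle and myofibroblasts fell in 16 of 18 cases, and 0 rose, with a median of -0.82. Tagln (SM22), which binds actin, had intensities of 3086, 2489 and 2735 after sham-UV and 1285, 904 and 1075 after UV (log2 change -1.36, SE 0.099, adjusted p = 1.08e-06). Tpm1, a tropomyosin, went from 3195, 3272 and 2989 to 1338, 948 and 1381 (log2 change -1.39, SE 0.12, adjusted p = 2.99e-06), and Acta2, the smooth muscle actin that marks myofibroblasts, from 4135, 3991 and 4448 to 3167, 2411 and 2061 (log2 change -0.74, SE 0.11, adjusted p = 3.80e-04). All UV values lay below all sham-UV values. The myosin light chain Myl9 was at 3066, 2927 and 2634 after sham-UV and 859, 162 and 687 after UV (log2 change -2.65, SE 0.34, adjusted p = 9.71e-05), with UV array 2 several-fold below the other UV arrays. Itga8, the integrin of contractile fibroblasts, changed by -2.24 and the LIM protein Csrp2 by -1.12. All 12 members with a span under 30 kb were lower.

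**Figure D3:**
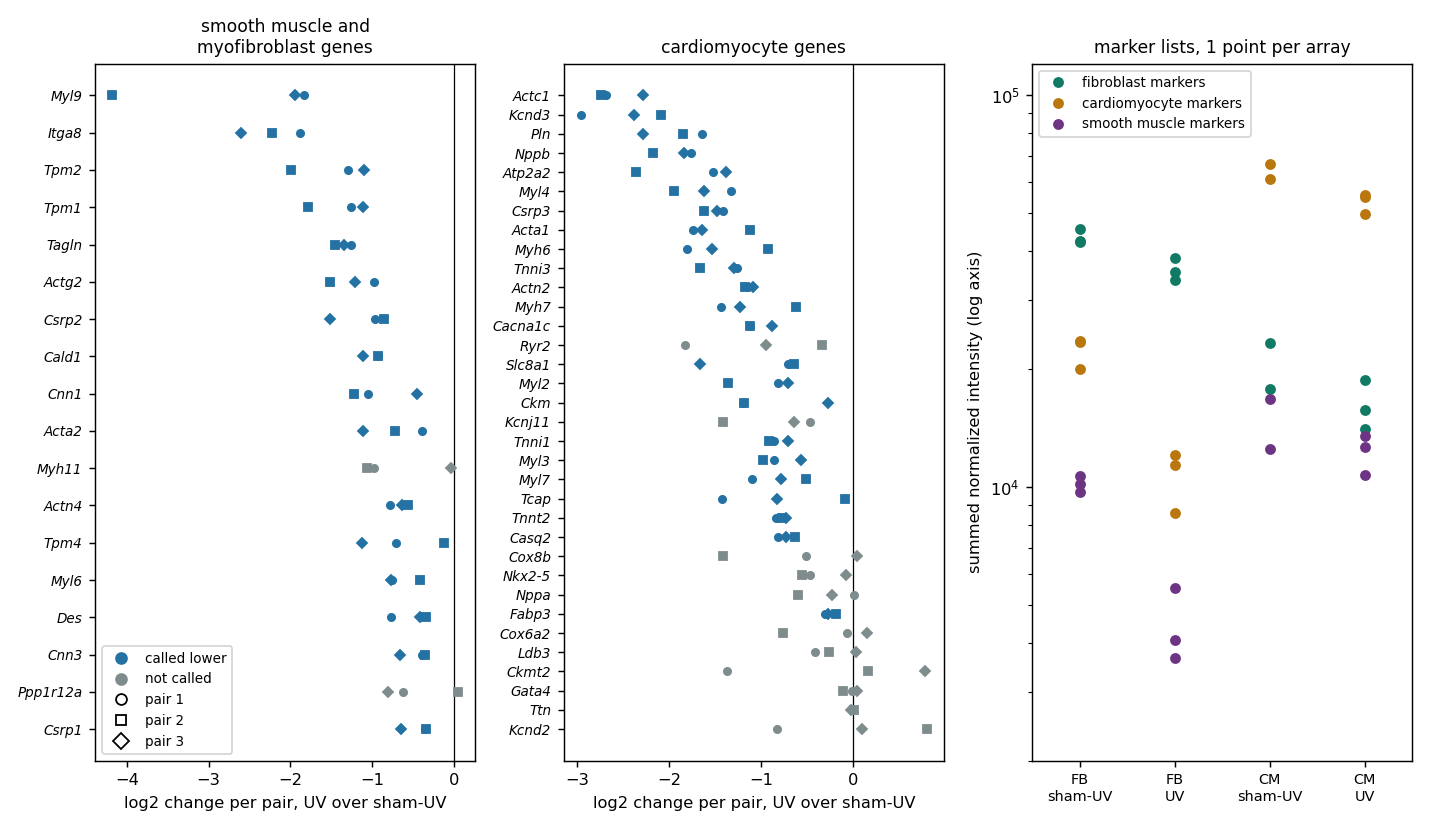
Left and middle, log2 change of each pair (UV over sham-UV) for contractile genes of smooth muscle and myofibroblasts and for cardiomyocyte genes, blue where the gene was called lower and grey where it was not called. Right, summed normalized intensity (log axis) of 3 marker lists in each array of fibroblasts (FB) and CM-enriched fractions (CM). Nearly all pairs lie below 0, and the cardiomyocyte marker sum of fibroblasts is 19977 to 23481 after sham-UV and 8591 to 12032 after UV.

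Cardiomyocyte genes were lower as well, 23 of 34 with 0 higher and a median of -0.86. Actc1, cardiac actin, went from 5023, 4228 and 5787 to 784, 634 and 1191 (log2 change -2.57, SE 0.10, adjusted p = 1.58e-08), 5.92-fold lower. Nppb, the natriuretic peptide BNP, went from 897, 914 and 1187 to 264, 203 and 332 (log2 change -1.92, SE 0.15, adjusted p = 1.48e-06). Pln, the phospholamban that restrains the calcium pump, changed by -1.93, the muscle LIM protein Csrp3 by -1.504 and the troponins Tnni3 and Tnnt2 by -1.41 and -0.78. Tnni3 was not called with the experiment as a random block (adjusted p = 0.0858). The 14 cardiomyocyte markers are all members of the cardiomyocyte list, so their sum repeats its values and is no separate measure. That sum was 19977 to 23481 after sham-UV and 8591 to 12032 after UV, and 12 of the 14 were lower. The 7 smooth muscle markers are likewise all members of the contractile list above. They summed to 9727 to 10681 after sham-UV and 3657 to 5528 after UV, and 6 were lower. The 12 fibroblast markers summed to 33729.8 to 38389 after UV, and 4 were lower. The leukocyte marker Cd74 was at the floor in all 6 arrays. In CM-enriched fractions the cardiomyocyte marker sum was 49543 to 55349 after UV. The part of a change in cell content in the fall of contractile and cardiomyocyte genes was not tested.

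Of 13 collagens, 7 fell (53.8%, against 13% of all genes) and 0 rose, with a median of -0.81. Of the 7 with a span over 100 kb, 6 fell, and of the 3 under 30 kb, 0. Col11a1, a fibril-nucleating collagen, had intensities of 636, 679.9 and 569 after sham-UV and 151, 63.9 and 131 after UV (log2 change -2.54, SE 0.25, adjusted p = 1.16e-05). Col5a1 and Col5a2, which set fibril diameter, went from 1631, 1796 and 1640.2 to 577, 646 and 479 (log2 change -1.58, SE 0.23, adjusted p = 2.91e-04) and from 4308, 3926 and 3926 to 2472, 2456 and 1769 (log2 change -0.88, SE 0.086, adjusted p = 1.11e-05). The main fibrillar collagens Col1a1 and Col3a1 were at log2 changes of -0.13 and -0.24 and were not called. Col1a2 was called lower (log2 change -0.44, adjusted p = 0.00331), though not with the experiment as a random block (adjusted p = 0.142). Among 47 matrix glycoproteins and proteoglycans, 18 fell and 2 rose. Ltbp1, which stores latent TGF-beta in the matrix, changed by -1.97, the proteoglycan Sdc2 by -1.61 and the elastic fibre protein Fbln5 by -1.35. The proteoglycan Gpc3 was not called as a gene, since 1 of its 3 probe-sets was lower (-1.32) and another was at -0.012.

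Matrix proteases and their inhibitors ran in both directions, 11 of 32 higher and 5 lower. Plaur, the urokinase receptor, went from 88.6, 54.5 and 58.2 to 281, 217 and 205 (log2 change 1.83, SE 0.16, adjusted p = 4.68e-06), and Timp1, a metalloproteinase inhibitor, from 898, 839 and 859 to 1533, 1898 and 1405 (log2 change 0.89, SE 0.095, adjusted p = 2.28e-05). Serpine2 (protease nexin 1), which blocks thrombin and urokinase, went from 854, 923 and 790.1 to 150.0, 132 and 158 (log2 change -2.54, SE 0.27, adjusted p = 2.04e-05). The membrane metalloproteinase Mmp16 fell by 2.13. Plaur, Timp1 and Serpine2 all showed complete separation of the groups.

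Growth factors and their receptors fell in 21 of 59 cases and rose in 4, with a median of -0.29. The ligand Gas6, which activates TAM receptors, had intensities of 1973, 1939.5 and 1991 after sham-UV and 368, 556 and 498 after UV (log2 change -2.08, SE 0.14, adjusted p = 6.79e-07) in 1 of 2 probe-sets, while the other was at -0.12 and was not called. Igf1 went from 1381, 1273 and 1583 to 544, 351 and 406 (log2 change -1.72, SE 0.13, adjusted p = 1.41e-06), and its receptor Igf1r from 128, 110.1 and 115 to 17.7, 30.4 and 29.2 (log2 change -2.23, SE 0.16, adjusted p = 1.20e-06). Ligand and receptor were both lower in every UV array. Bmp6, a ligand of the TGF-beta family, fell by 1.89. In a further list of 39 vasoactive and adrenergic receptors, 5 fell and 4 rose. The lysophosphatidic acid receptor Lpar1 and the adrenergic receptor Adra1b changed by -1.94 and -1.48, alongside Agtr1a. Among integrins, caveolins and junction proteins, 9 of 29 fell and 5 rose. The leading falls were Itga8, given above, N-cadherin Cdh2 (-1.76, SE 0.10), the adhesion molecule Ncam1 (-1.68, SE 0.14) and the collagen receptor subunit Itga1 (-1.67, SE 0.14). All of those 4 have spans over 100 kb. The kinase receptor Ddr2, which binds collagen, fell by 1.23.

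The remaining lists were mixed or had few calls. Ribosomal protein genes had 3 of 40 higher and 0 lower with a median of 0.021. The leading one, Rps27l, rose from 2518, 2401 and 2238 to 3484, 3282 and 3181 (log2 change 0.48, SE 0.069, adjusted p = 2.46e-04). Genes of the respiratory chain and ATP synthase had 9 of 53 lower and 0 higher with a median of -0.21. Ndufs4, a subunit of complex I with a span of 110.5 kb, fell by 1.88 in its brightest probe-set, and 1 of its 3 was at 0.071. Glycolytic genes had 6 of 19 higher and 3 lower, and Aldoc, an aldolase, went from 34.0, 7.14 and 7.20 to 89.4, 66.6 and 57.4 (log2 change 2.54, SE 0.41, adjusted p = 6.31e-04). RNA polymerase II and general transcription factors had 1 of 12 higher, Polr2g (0.75, SE 0.072), and 1 lower, Gtf2f2 (-1.89, SE 0.41). Non-muscle cytoskeletal genes had 5 of 32 in each direction. The intermediate filament gene Nes rose by 1.12 in 1 of 2 probe-sets and Vim, vimentin, fell by 0.58. Of 12 ABC transporters, Abcb1b was the 1 that rose, and 2 fell.

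**Figure D4:**
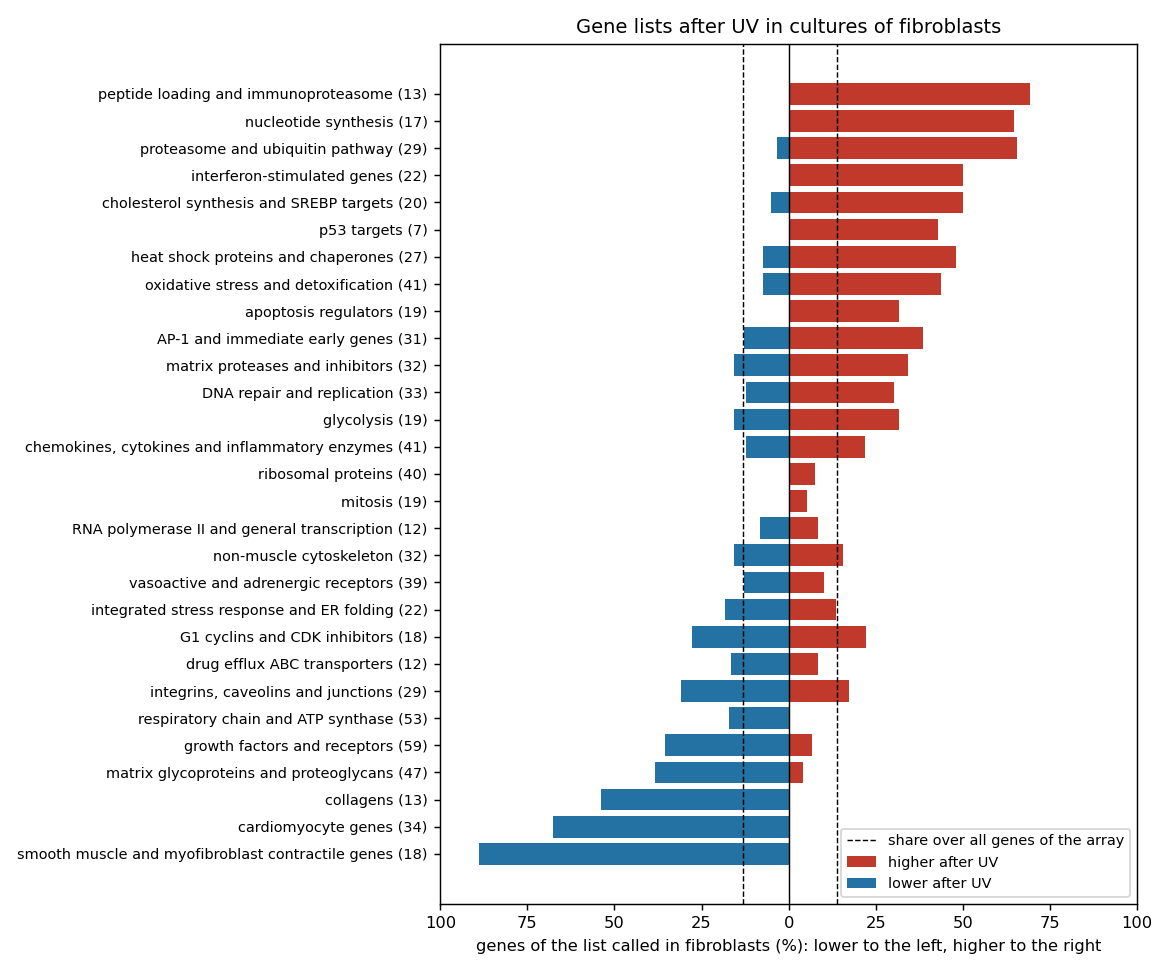
Percent of the genes of each list called higher (right) or lower (left) after UV in cultures of fibroblasts, with the number of genes on the array in brackets. Dashed lines are the shares over all genes, 13.9% higher and 13% lower. The 2 muscle lists and the collagens lie furthest to the lower side, and peptide loading, nucleotide synthesis and proteasome genes furthest to the higher side.

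The next question was whether UV and IR differed in these cells. The test of the difference between the 2 responses called 1257 probe-sets (14.4%), 622 higher after UV (7.12%) and 635 lower (7.27%). By gene, IR alone gave 2 higher (0.0422%) and 3 lower (0.0633%). For Abcb1b the log2 changes were 4.23 after UV and 1.25 after IR, which differed by 2.98 (SE 0.27, adjusted p = 2.47e-05). For Hspa2 they were 3.41 and -0.10, a difference of 3.51 (SE 0.43, adjusted p = 1.73e-04). Slbp, which binds the stem-loop of histone mRNA, changed by 2.52 and -0.48 and differed by 3.00 (SE 0.47, adjusted p = 9.54e-04). Cyp7b1, Slit3, Nfia and Nrg1 were the leading genes in the other direction, with IR values of -0.22, 0.021, 0.21 and 0.69. The p53 targets were closer, since Cdkn1a was at 1.18 and Mdm2 at 1.12 after IR, though neither was called as a gene after IR. Both were higher after UV than after IR, by 2.03 (SE 0.32, adjusted p = 9.82e-04) and 1.38 (SE 0.19, adjusted p = 3.84e-04). By list, 14 of 29 proteasome genes were higher after UV than after IR, 19 of 34 cardiomyocyte genes were lower, and so were 16 of 59 growth factors and receptors.

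UV was also set against its effect in CM-enriched fractions, which showed rises of 481 genes (10.2%) and falls of 436 (9.21%). That response rests on 2 pairs, because the third CM-enriched UV array has no sham-UV array of its number. The difference between the populations was called in 555 probe-sets (6.35%), 238 higher in fibroblasts (2.72%) and 317 lower (3.63%). Cyp7b1 changed by -4.42 in fibroblasts and -0.17 in CM-enriched fractions, a difference of -4.26 (SE 0.41, adjusted p = 1.75e-04). Cmklr1 changed by -3.20 and -0.30 and 1 probe-set of Tbxa2r, the thromboxane receptor, by -2.59 and 0.19. The brighter probe-set of Tbxa2r was at -0.28 in fibroblasts (adjusted p = 0.190). Arg1, arginase 1, had changes of opposite sign, 1.60 and -2.52, and differed by 4.12 (SE 0.57, adjusted p = 0.00152). Cdkn1a and Mdm2 changed by 3.20 and 2.49 in fibroblasts and by 2.28 and 2.41 in CM-enriched fractions, with differences of 0.93 (SE 0.36, adjusted p = 0.165) and 0.086 (SE 0.21, adjusted p = 0.931) that were not called.

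Genes of cholesterol synthesis and other SREBP targets differed between the populations. Their median was 0.49 in fibroblasts and -0.55 in CM-enriched fractions, with 1 higher and 9 lower there, and the difference was called in 12 of 20, all higher in fibroblasts. Scd, for example, was at 1.28 and -0.11, and Idi1 at 1.17 and -0.54. Actc1 was at -2.57 and -0.34, a difference of -2.23 (SE 0.16, adjusted p = 1.71e-05), and the difference was called in 9 of 34 cardiomyocyte genes, 8 lower and 1 higher in fibroblasts. Trib3 and Ddit3 were at -1.09 and -0.12 in fibroblasts and 0.76 and 1.63 in CM-enriched fractions, differences of -1.86 (SE 0.31, adjusted p = 0.00445) and -1.75 (SE 0.23, adjusted p = 0.00114). Fractions and cultures also differed in preparation, and the effect of cell type and of preparation cannot be told apart.

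**Figure D5:**
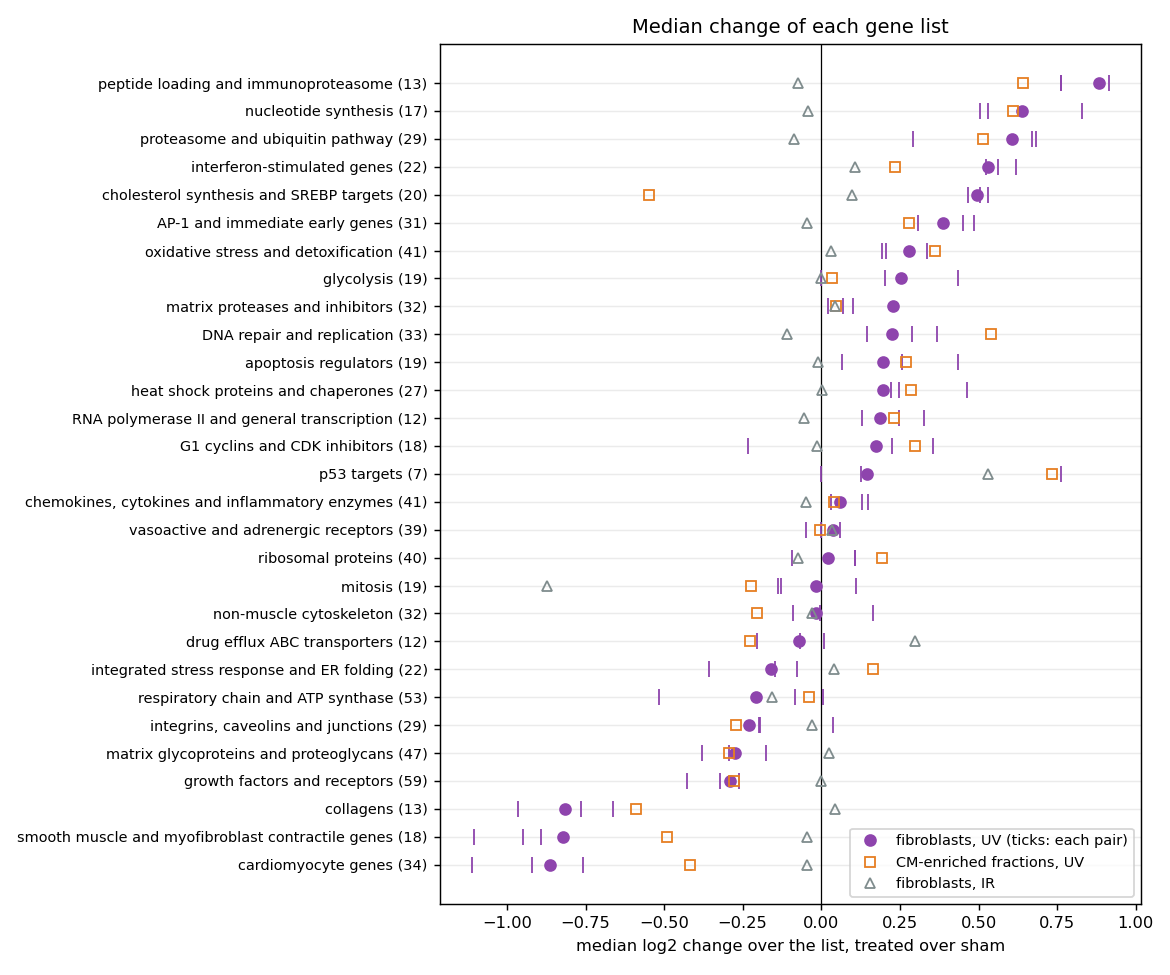
Median log2 change of each gene list after UV in fibroblasts (filled points, ticks are the pairs), after UV in CM-enriched fractions (squares) and after IR in fibroblasts (triangles), with the number of genes in brackets. Genes of cholesterol synthesis and other SREBP targets lie at 0.49 in fibroblasts and -0.55 in CM-enriched fractions after UV, and mitotic genes at -0.87 after IR.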

How the data were processed

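RNA from the 35 samples was hybridised to Affymetrix rat genome arrays, with 1 array per sample. The deposited intensity values, 1 per probe-set on a linear scale, were made by the authors with software not given in the sources used here, and the 2% trimmed mean was 200.3 to 200.4 on each of the 6 arrays. The scan records were not used. After 59 control probe-sets were left out, each array was scaled to a 75th percentile of 175, values under 6.88 (the 20th percentile) were set to that floor, and log2 values were brought to 1 distribution by quantile normalization. Between 15.1% and 22.0% of probe-sets were at the floor on the 6 arrays, where an array count of 3 per group limits the precision. Spearman's rho between arrays was 0.956 to 0.973 within groups and 0.920 to 0.945 between them, and no 2 arrays were identical.

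A linear model with a trend in the variance was fitted over all 35 arrays (limma 3.58.1, R 4.3.3), with numbered experiment as a block within population and stressor, after the model of the study (11 residual degrees of freedom). The same fit tested the differences between responses. P-values were adjusted by Benjamini-Hochberg over 8740 probe-sets. A single gene symbol was given for 7006 of these, several for 308 and none for 1426. RefSeq (GRCr8) held 6985 of the first. Gene values are those of the brightest probe-set, and 1 gene (Ndufaf3) had probe-sets called in opposite directions. Alternatives were no block, a random block, 6 arrays only, other scaling, floor, pseudocount of 16, brighter probe-sets, and each pair left out. The script was tested on simulated data.

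Named genes were the 12 largest rises and falls above the floor and alike in 3 pairs, up to 4 each at the floor in 1 group, up to 5 of each list by p, Cdkn1a, Mdm2, Ddit3, and up to 4 per direction of each difference test. The comparison, lists and span classes were chosen with earlier results of these data known. Col1a1, Col3a1, Fos, Abcb1a and Oas1b are outside this rule and were named after their values were seen.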

Additional observations from a re-analysis of the deposited data

Results flagged for a closer look

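For 63 of the 187 named probe-sets the change after UV differed between cultures of fibroblasts and CM-enriched fractions (limma, adjusted p under 0.05 for the difference itself, with the CM-enriched response resting on 2 pairs). Each value below is the log2 change in fibroblasts minus that in CM-enriched fractions, so a positive value means higher in fibroblasts. The background is 6.35% of all probe-sets, and the named probe-sets were partly chosen for this difference, so their number is a description.

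Among genes with a higher value in fibroblasts, stress, efflux and detoxification genes differed by 1.74 (Abcb1b) and 0.87 (Ephx1). Immediate early genes and their regulators differed by 1.90 (Egr2), 1.88 (Dusp6) and 1.28 (Jun), although over their list of 31 genes 5 were higher in fibroblasts and 5 lower. Immune and inflammatory genes differed by 2.72 (Cd80), 2.38 (Gbp2), 1.65 (Il6), 4.12 (Arg1), 3.23 (Ackr3), 2.45 (Ly6l) and 0.74 (Itgam). Of these, Ackr3 and Ly6l were not called in fibroblasts without pair 3 (adjusted p = 0.184 and 0.161), and Itgam was at the floor in 5 of the 6 fibroblast arrays. Cell cycle, replication and apoptosis genes differed by 1.03 (Cdc20), 1.29 (Mcm6) and 1.08 (Bok), where Bok was not called in fibroblasts without pair 3 (adjusted p = 0.0688). Sterol and lipid genes differed by 1.38 (Scd), 1.72 (Idi1), 1.28 (Acly) and 1.32 (Msmo1). Of these, Scd, Idi1 and Msmo1 were not called in fibroblasts with a random replicate block (adjusted p = 0.223, 0.151 and 0.422). Matrix, protease and secreted genes differed by 2.21 (Fst), 1.01 (Col1a2), 1.70 (Plaur) and 0.57 (Timp1). Cytoskeletal, receptor, proteasome and glycolytic genes differed by 1.88 (Nes), 1.22 (Capg), 0.73 (F2r), 0.61 (Psmc4), 0.76 (Psmc1) and 0.45 (Pgam1). Col1a2 and F2r, and Ackr3 and Ly6l above, were not called in fibroblasts with a random replicate block either (adjusted p = 0.142, 0.128, 0.194 and 0.0676).

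Among genes with a lower value in fibroblasts, metabolic and trafficking genes differed by -4.26 (Cyp7b1), -2.74 (Akr1c14), -1.30 (Me1), -0.85 (Hmox1), -1.86 (Man1a1), -1.56 (Stx8), -0.95 (Plcl1) and -0.48 (Atp5f1e). Transcription, repair and cell cycle genes differed by -2.32 (Nfia), -2.33 (Ebf1), -1.06 (Mgmt) and -0.76 (Ccnd3). Genes of the integrated stress response differed by -1.86 (Trib3) and -1.75 (Ddit3). Contractile and cardiomyocyte genes differed by -0.91 (Tagln), -1.11 (Tpm1), -2.54 (Myl9), -1.93 (Itga8), -2.23 (Actc1), -0.92 (Tnni3) and -0.65 (Tnnt2). Matrix and protease genes differed by -2.08 (Col11a1), -1.45 (Mmp16) and -2.15 (Serpine2). Growth factors, receptors and channels differed by -2.59 (Nrg1), -1.63 (Gas6), -1.13 (Igf1r), -1.10 (Adgrl2), -2.49 (Cacna2d1), -2.90 (Cmklr1) and -2.78 (Tbxa2r). Adhesion genes differed by -0.91 (Cdh2), -0.83 (Itga1) and -1.21 (Ncam1).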

How the results depend on the processing

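Counts of called probe-sets moved with the model, and no named change reversed in any setting. With no replicate block, UV in fibroblasts gave 614 higher and 586 lower, the difference from IR 231 and 273, and the difference from CM-enriched fractions 26 and 52. With a random replicate block (consensus correlation 0.31) the last difference gave 113 and 178, and UV in fibroblasts 921 and 848. The 6 arrays alone gave 184 and 245 with 2 residual degrees of freedom in place of 11. At an adjusted p under 0.005 the counts were 540 and 625 for UV in fibroblasts, 227 and 322 for the difference from IR, and 61 and 72 for that from CM-enriched fractions. Scaling without quantile normalization moved the split to 879 higher and 1075 lower. Leaving out 1 pair gave 725 to 810 higher and 793 to 809 lower. Of 187 named probe-sets, 164 were called in the main fit. Among these 164, 92 were no longer called on 6 arrays alone, 41 with no block and 14 with a random block. The number lost was 5 with the higher floor, and 6, 8 and 8 without pairs 1, 2 and 3. With no block those lost included Cdc20, Irf1, Il6, Nfkb1, Icam1, Trib3, Hmox1, Scd, Idi1, Acly, Fasn, Tagln, Tpm1, Pln, Csrp3, Tnni3, Nppb, Fbln5 and Arg1 (adjusted p = 0.0565 to 0.490). Counts by gene list moved too: of 68 counts of list members called higher or lower, 48 moved by over 1.5 times on 6 arrays alone, 30 with no block, 13 with a random block, 13 with the brighter probe-sets, 9 with other scaling, 3 with the higher floor, 2 with the pseudocount, and 9, 16 and 15 without pairs 1, 2 and 3. The cause of these moves was not tested. The pairing by number comes from the titles and the study's model: deviations from the group means correlated by 0.37, 0.15 and 0.073 in pairs 1, 2 and 3, and sham-UV array 3 correlated more with UV array 2 (0.13) than with its own number. Signal limits what could be called, since 15.1% to 22.0% of probe-sets were at the floor. Of the 49 genes over 300 kb above the median signal, 15 fell on 6 arrays alone and 28 to 34 in the other settings that used all of them.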
